A study of Drosophila melanogaster with 3 samples.

Results

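Binding sites of the CG1647-GFP fusion protein that lie close together were described in whole Drosophila melanogaster embryos. They were chosen on the measured summit positions of the retained peaks, those past the authors' threshold of the irreproducible discovery rate (IDR). A peak was called clustered where its summit, the base the peak caller marked as the highest point, lay more than 200 bp and at most 2000 bp from another retained summit on the same chromosome arm. Of the 3123 retained peaks 729 were clustered (23.3%), 2358 were isolated, with no other summit within 2000 bp, and 36 had another summit only within 200 bp and were set apart. Clustered peaks no more than 2000 bp apart were chained into 329 loci. Peaks of a locus share chromatin and libraries and are not replicates.

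Chromatin immunoprecipitation with sequencing (ChIP-seq) was done on mixed-sex embryos aged 0 to 24 h, in 3 biological replicates of 1 group. All came from 1 transgenic line that carries CG1647 with GFP at its C terminus, and an antibody against GFP was used, so the measurement is of the tagged protein. The study holds no second condition. Because whole embryos were used, strong binding in few cells and weak binding in many cannot be told apart, and neither can neighbouring sites used in the same cells or in different ones.

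CG1647 encodes a protein with C2H2 zinc fingers, a fold that commonly contacts DNA. In Drosophila, several zinc-finger proteins of this kind sit at promoters and at insulators, the elements that separate chromatin domains. A promoter is the DNA around a transcription start site (TSS), and neighbouring sites can lie at several promoters of a gene, at its introns or at elements between genes. In ChIP-seq the fragments held by the protein pile up around a site, and the peak caller gives each pile a summit and a signal value, which ranks peaks within a list.

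The 200 bases around 8 clustered summits are given as examples of the DNA under the neighbouring sites. The first 5 hold a short word found near many summits, CACTG on either strand, at least 2 times. They are not typical in this, because most clustered summits hold the word 1 time or not at all. The others are the strongest summit of the locus with the most peaks, the strongest clustered summit of all, and the stronger of the pair at the promoter of CG1647 itself. They come from the RefSeq copy of dm6 and are written 5′ to 3′ on the plus strand. Capitals mark CACTG and its reverse complement CAGTG.
CHES-1-like, summit 3 of 4 (chrX:7700312-7700511): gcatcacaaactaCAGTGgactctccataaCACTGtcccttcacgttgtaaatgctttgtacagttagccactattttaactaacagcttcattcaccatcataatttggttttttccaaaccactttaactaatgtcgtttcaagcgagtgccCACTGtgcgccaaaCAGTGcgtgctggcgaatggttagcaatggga
NFAT, summit 1 of 2 (chrX:13640432-13640631): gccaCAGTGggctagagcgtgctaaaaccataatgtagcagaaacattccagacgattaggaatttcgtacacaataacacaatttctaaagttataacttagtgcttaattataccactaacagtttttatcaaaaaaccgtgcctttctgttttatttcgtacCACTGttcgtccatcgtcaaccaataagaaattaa
NFAT, summit 2 of 2 (chrX:13641145-13641344): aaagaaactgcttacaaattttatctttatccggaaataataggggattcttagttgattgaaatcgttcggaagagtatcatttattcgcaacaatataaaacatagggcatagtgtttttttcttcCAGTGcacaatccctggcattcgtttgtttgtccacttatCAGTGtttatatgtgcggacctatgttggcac
lncRNA:CR44619, summit 2 of 2 (chrX:12752285-12752484): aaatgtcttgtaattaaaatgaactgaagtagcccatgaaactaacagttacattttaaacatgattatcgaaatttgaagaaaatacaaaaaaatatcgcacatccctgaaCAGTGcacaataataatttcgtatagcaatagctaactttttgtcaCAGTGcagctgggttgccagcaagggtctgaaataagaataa
CG11050, summit 2 of 2 (chr2L:6612619-6612818): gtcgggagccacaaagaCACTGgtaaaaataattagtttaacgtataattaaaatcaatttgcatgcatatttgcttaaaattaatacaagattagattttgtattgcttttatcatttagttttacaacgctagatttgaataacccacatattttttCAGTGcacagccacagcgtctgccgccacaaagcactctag
Raf, summit 2 of 6 (chrX:2297630-2297829): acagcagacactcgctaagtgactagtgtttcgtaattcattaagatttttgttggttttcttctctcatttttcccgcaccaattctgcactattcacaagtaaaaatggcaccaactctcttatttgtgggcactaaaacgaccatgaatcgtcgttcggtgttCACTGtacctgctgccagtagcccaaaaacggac
cbt and ush, summit 2 of 3 (chr2L:480993-481192): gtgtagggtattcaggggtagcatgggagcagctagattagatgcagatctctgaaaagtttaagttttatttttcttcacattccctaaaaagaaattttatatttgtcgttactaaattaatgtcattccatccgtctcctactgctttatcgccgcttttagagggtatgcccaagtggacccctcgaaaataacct
CG1523 and CG1647, summit 1 of 2 (chr3R:28819635-28819834): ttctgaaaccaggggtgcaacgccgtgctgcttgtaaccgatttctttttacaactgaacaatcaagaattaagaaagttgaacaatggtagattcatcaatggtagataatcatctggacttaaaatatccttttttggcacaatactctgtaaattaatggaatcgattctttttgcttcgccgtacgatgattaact

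Most loci were pairs of peaks. There were 273 loci of 2 peaks, 44 of 3, 10 of 4, 1 of 5 and 1 of 6, so that 56 loci held 3 or more peaks and 183 of the clustered peaks. The loci spanned a median of 1088 bp between their outer summits, from 201 to 7810 bp. Adjacent summits within loci lay 199 to 1988 bp apart, with a median of 969 bp over 400 gaps.

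The spacing fell into separate ranges. Of the 400 gaps 82 were no longer than 390 bp, the median peak width, so the peaks on either side overlapped or touched. The DNA fragments measured 200 to 800 bp, so 1 fragment can span such a gap. Whether summits this close mark separate sites was not tested. Over all retained peaks 77 gaps measured 210 bp or less, the shortest 199 bp, and no gap lay between 349 and 503 bp. The lower bound of the rule runs through the first of these ranges: summits 201 bp apart were inside it and summits 200 bp apart outside. Even so, 7 of the 400 gaps within loci measured 200 bp or less, because both peaks had a further summit in range. At the upper bound, gaps of 1973, 1986 and 1988 bp were inside and gaps of 2001, 2005 and 2010 bp outside. The gap of 2001 bp separated the 4-peak locus of CHES-1-like from a 3-peak locus in the same gene, which together hold 7 peaks. Joining overlapping peaks into 1 region left 585 clustered peaks in 268 loci.

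**Figure D1:**
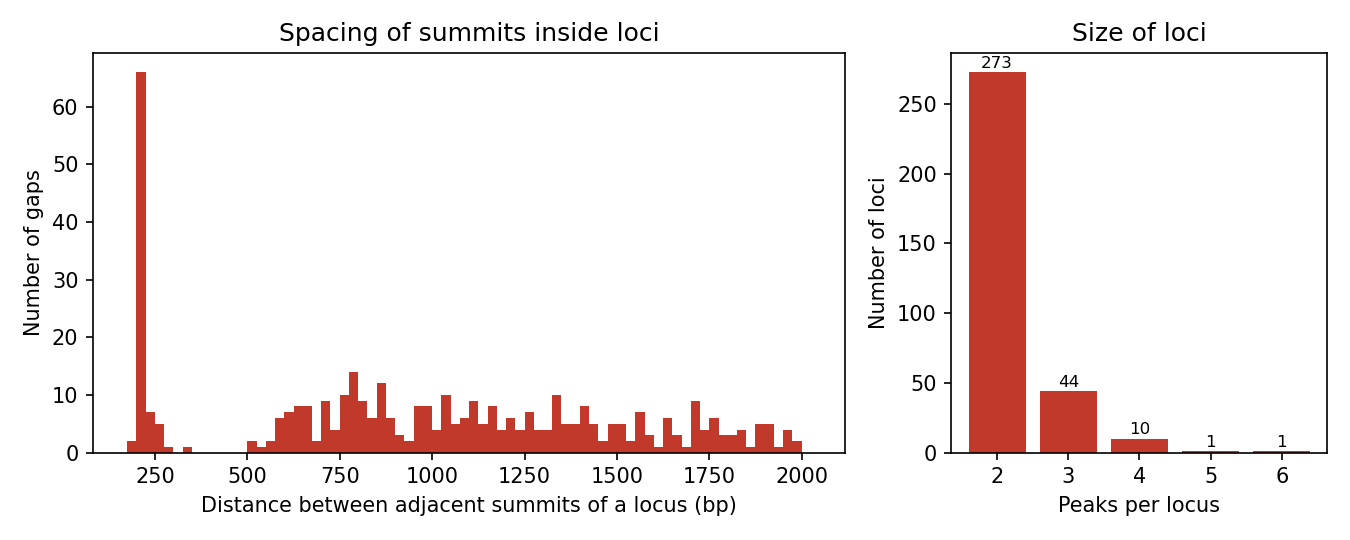
Left, number of gaps (y axis) by the distance in bp between adjacent summits of a locus (x axis, bins of 25 bp), over 400 gaps. Right, number of loci by peaks per locus. Gaps pile up just above 200 bp, are missing between 349 and 503 bp and then spread up to 1988 bp, and 273 of 329 loci are pairs.

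Loci with narrow and with wide gaps lay at different places. A promoter peak here has its summit within 500 bp of the TSS of a protein-coding gene. Of the 81 loci with a gap of 390 bp or less, 57 held 2 or more promoter peaks that shared a gene. In 46 of these the locus was a pair, and the others held 3 or 4 peaks, some at further promoters as well. Of the 248 loci with wider gaps only, 90 held 1 promoter peak (36.3%), 89 held none (35.9%), 44 held 2 or more that shared a gene (17.7%) and 25 held 2 or more with no gene in common (10.1%). The contrast in shared genes is partly set by the definitions. Promoter summits at most 390 bp apart can readily lie within 500 bp of the same TSS. Of all 329 loci, 254 lay inside or within 500 bp of a single gene (77.2%). This position is not particular to loci, because 2098 of the 2358 isolated peaks were also counted as inside 1 gene. A locus was counted only where all its summits shared the gene. Counted by locus, with the longest gene taken, the median length of these genes was 10317.5 bp. Counted by peak, it was 9524 bp for genes that hold an isolated peak. A gene with several loci or peaks counts more than once in these values. Over all protein-coding genes, each counted 1 time, the median was 2166 bp. For intronic peaks alone, counted by peak, the order of clustered and isolated was the opposite, with 22791.5 bp for clustered and 30889.5 bp for isolated peaks.

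With gaps held to 2000 bp, the locus with the most peaks covered 7810 bp of Raf on X, the gene of a protein kinase that carries signals from Ras to the MAP kinases. Its 6 summits ran from the 5′ untranslated region, 844 bp downstream of the TSS, through introns to a position 8654 bp downstream. Their signal values in the retained list were 340, 960, 166, 321, 204 and 357 in order along the arm. The second summit was the highest, at rank 46 of the retained list, and stood at ranks 39, 47 and 67 in replicates 1, 2 and 3. The weakest, the third, had signals of 58.9, 75.7 and 29.2 in the replicate lists, and in replicate 3 it was outside the best 3123 peaks, at rank 7863. The other 5 were among the best peaks of every replicate. Gaps of 1420 to 1836 bp separated the summits, so none of the peaks overlapped.

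The next locus held 5 summits between genes on 3L, and scyl, which encodes an inhibitor of growth through the TOR pathway, had the nearest TSS. Signals were 170, 133, 139, 189 and 203, all in a narrow range. The first 2 summits lay 269 bp apart and overlapped the same candidate peak in each replicate, so the replicates do not resolve them.

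**Figure D2:**
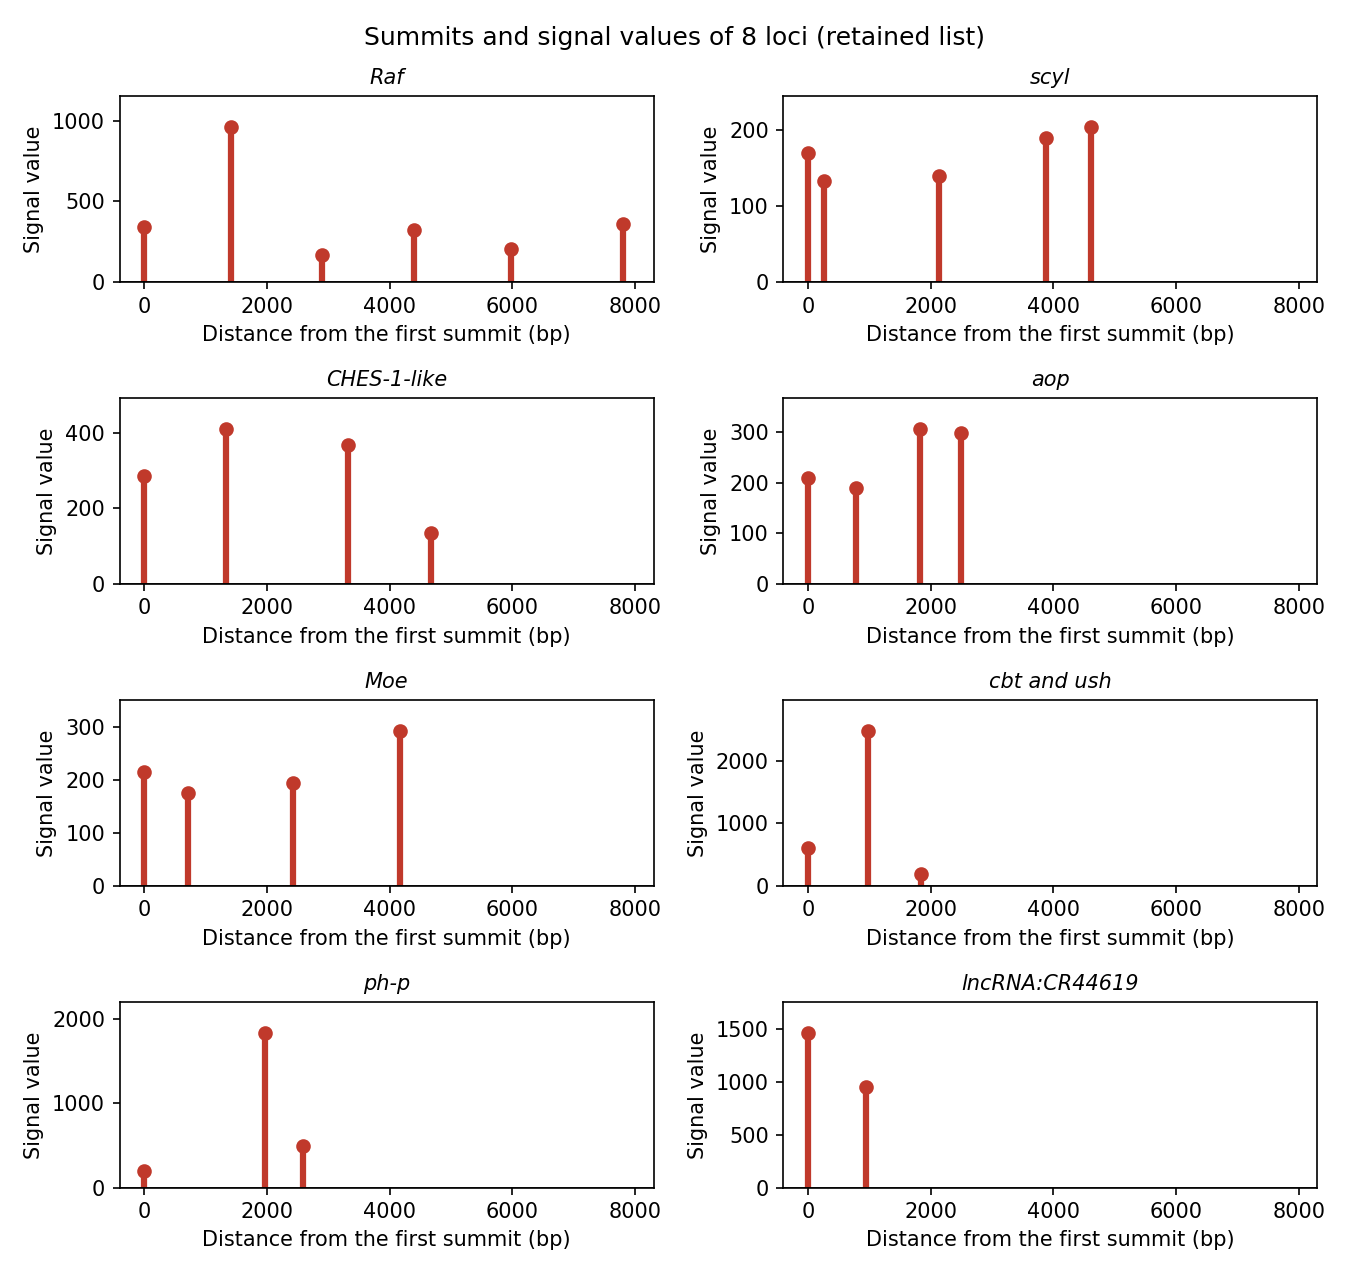
Signal value in the retained list (y axis, own scale for each panel, from 0) of each clustered summit by its distance in bp from the first summit of the locus (x axis), for 8 loci. Signals within the scyl, aop and Moe loci lie close together, whereas 1 summit stands above the others at Raf (960), cbt and ush (2470) and ph-p (1835).

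Loci of 4 peaks lay at transcription factors and signalling genes as well as at other kinds of gene. At aop, the gene of an ETS-family repressor that acts below the same kinase cascade as Raf, the signals were 211, 190, 306 and 298, with the second summit at the promoter. At CHES-1-like, a forkhead factor gene, they were 287, 410, 368 and 134, with the first at the promoter and the others in introns. Counted by gene, a count made after the values were seen, CHES-1-like had the most clustered peaks, 12 in 4 loci over 20140 bp, against 6 in 1 locus at Raf. Its further loci held 3 intronic summits of 178, 224 and 135, 3 intronic summits of 183, 307 and 240, and a pair with 1 summit at the promoter. At shn, a zinc-finger factor of the Dpp pathway, all 4 summits were intronic, at 301, 213, 298 and 244, and the first 2 shared a candidate peak in each replicate. At crp, which encodes a basic helix-loop-helix factor, 3 intronic summits had signals of 126, 308 and 191 and a promoter summit shared with pkaap had 384. The weakest of these had no overlapping candidate in replicate 2.

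In the other 4-peak loci the number of promoter summits ran from 0 to 4. At Moe, the gene of the membrane-to-actin linker Moesin, 2 promoter summits (215 and 195) alternated with 2 intronic ones (175 and 293). At Pgk, a glycolytic enzyme gene, and its neighbour Bacc all 4 summits were at promoters, with signals of 267, 282, 255 and 174. The last 2 lay 202 bp apart, and each replicate had only 3 separate peaks for the 4 summits. At HmgD and HmgZ, genes of HMG-box chromosomal proteins, an intronic summit of 1099 was followed by summits of 256, 162 and 151. The smallest gap here was 199 bp. Among the best peaks of replicates 1, 2 and 3, the locus had 4, 1 and 3 separate ones. Beside NimC3, a gene of the Nimrod receptor family, 3 summits of 133 to 177 accompanied 1 of 1096 in an exon of lncRNA:CR31840. The locus at brwl, lncRNA:CR44149 and jp, the junctophilin gene, had signals of 561, 624, 389 and 144. The locus between COX7AL2 and CG31668 had signals of 263, 183, 570 and 133, all between genes.

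The 3-peak loci with the highest summed signal held strong single summits. Within ush, which encodes a cofactor of GATA factors, and beside cbt, a zinc-finger factor gene, the signals were 609, 2470 and 184. The middle summit ranked 3 in the retained list and 3 in every replicate, with replicate signals of 772, 1025 and 684. At ph-p, a Polycomb group gene, the signals were 198, 1835 and 495, and the middle one ranked 7, 5 and 6 in replicates 1, 2 and 3. At CG9837 they were 260, 898 and 142.

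Among 2-peak loci the highest summed signal was in exons of lncRNA:CR44619 on X. Its summits had signals of 407, 628 and 431 for the first and 230, 461 and 263 for the second in replicates 1, 2 and 3, and the first was the higher in all 3. At NFAT, a transcription factor gene, 2 intronic summits had signals of 783 and 524. Here too the first was the higher in each replicate, at 220, 350 and 224, against 170, 214 and 142 for the second. At Atf3, a bZIP factor gene, a promoter summit of 912 accompanied 1 of 380 that lay 1906 bp upstream of the TSS.

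The other named pairs were unequal. An intronic summit of CG11050 had 2062 and its promoter summit 260. The promoter of CG1888 held summits of 1557 and 162. In introns of Tlk, a kinase gene, the summits had 1068 and 182, and in Trl, which encodes the GAGA factor, 1026 and 169. Separate promoters were joined at CG8360 and CG8372 (1061) with Ssb-c31a and Su(var)205 (177), the last of which encodes heterochromatin protein HP1a. The same held for Pdrg1 and Pal1 (1093) with Mef2 (176), a muscle transcription factor gene, and for CG8320 and Pex11ab (977) with CG8314 (161).

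The promoter shared by CG1523 and CG1647 held a clustered pair on 3R, with summits at 28819735 and 28819938. Their signals in the retained list were 207 and 128, and the second ranked 3053 of 3123. The summits lay 203 bp apart and overlapped a single candidate peak in each replicate, with signals of 47.8, 119 and 55.3 at ranks 2254, 731 and 2003. The replicates therefore show binding at this promoter but do not separate its summits. The files hold no measurement of endogenous against transgenic CG1647, and the origin of these reads was not tested.

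Signal within a locus was usually uneven. In 2-peak loci the stronger peak had a median of 1.55 times the signal of the weaker, from 1.00 to 9.60. The ratio was at least 2 in 81 of the 273 and below 1.25 in another 81. Clustered peaks, 23.3% of all retained peaks, made up 5 of the 25 and 29 of the 100 strongest. The first count lies below that share and the second above it. Their median signal was 201, against 186 in isolated peaks. The strongest clustered summits were those in ush (2470), in CG11050 (2062) and at ph-p (1835). The strongest isolated ones lay at the promoters of CG14100 (2899), Ugalt (2622), a UDP-galactose transporter gene, and px (1770). Of the 100 loci with exactly 1 promoter peak, that peak was the strongest in 48.

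The replicates were compared locus by locus, with the caution that the same reads made the retained list. Every member had a candidate peak of its own in 246, 245 and 248 loci of replicates 1, 2 and 3. In these loci the strongest member of the retained list was also the strongest in 84.6%, 85.3% and 81.5%. At least 2 separate peaks among the best 3123 of a replicate lay in 194, 207 and 200 loci, and in all 3 replicates in 122 loci (37.1%). Clustered peaks were found in the best peaks of all 3 replicates in 492 of 729 cases (67.5%), against 55.1% of isolated peaks. Signal and overlap moved with this share: it was 85.9% where the nearest summit was at most 390 bp away and 62.2% where it was farther. Among retained peaks of percentile 25 or less by signal it was 17.9% for clustered and 3.27% for isolated peaks, and above percentile 75 it was 100% for clustered and 99.5% for isolated peaks. The part of either in the difference was not tested.

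The rule was also applied to each replicate's own best 3123 peaks. It called 824, 743 and 798 peaks clustered in replicates 1, 2 and 3, or 25.2% ± 1.32 (SD, n = 3), in 364, 334 and 356 loci. The largest locus held 8, 6 and 6 peaks. On the arms, 26.5% of retained peaks on 2L were clustered, 20.7% on 2R, 22.7% on 3L, 20.7% on 3R and 27.5% on X, and 0 of 9 on chromosome 4.

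Clustered peaks lay at promoters less often than isolated ones. In the retained list 364 of 729 clustered peaks were promoter peaks (49.9%, exact 95% interval 46.2 to 53.6), against 56.7% of isolated and 55.2% of all retained peaks. In the replicates' own lists the share was 50.1%, 47.5% and 48.5% for clustered and 53.5%, 56.2% and 58.5% for isolated peaks. The clustered share was below the isolated share in all 3, and the groups did not overlap. Most of the 15 features compared showed no overlap either, so this is not particular to promoters. The mean difference was -7.36 percentage points ± 3.52 (SD, n = 3, exact two-sided sign-flip permutation p = 0.25, the smallest that 3 replicates allow, and 0.31 after adjustment over 15 features). The difference was -13.7 points with overlapping peaks joined, -12.6 with only gaps over 500 bp counted, -4.68 with gaps up to 5000 bp, -2.83 with promoters taken as 1000 bp around a TSS, and 0.199 with gaps up to 1000 bp.

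Introns held 33.9% of clustered peaks, against 29.1% of isolated peaks. In the replicates this difference was 5.12 points ± 2.12, positive in 3 of 3 (exact permutation p = 0.25, adjusted 0.31), and it was 9.09 points with overlapping peaks joined. Among peaks outside promoters introns held nearly the same share, 67.7% of clustered (247 of 365) and 67.2% of isolated peaks (686 of 1021). Promoters of genes on opposite strands, where a single summit lies within 500 bp of both TSSs, made up 17.0% of clustered and 22.0% of isolated peaks. The replicate difference was -6.70 points ± 1.94, negative in 3 of 3 with the same exact p, and -11.6 points with overlapping peaks joined. Between genes lay 87 clustered peaks (11.9%) and 260 of the 2358 isolated ones. Of rarer positions, exons of noncoding RNAs held 3.16% of clustered and 1.53% of isolated peaks, and 3′ untranslated regions held 0 clustered and 21 isolated peaks.

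**Figure D3:**
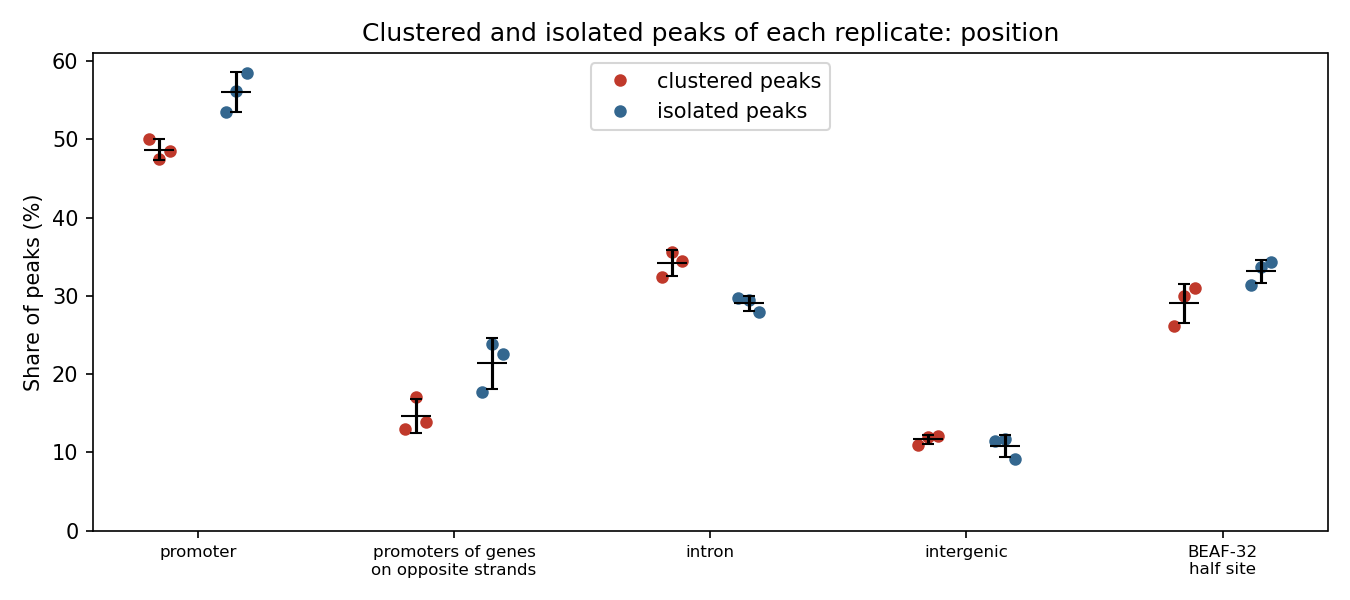
Share of peaks in percent (y axis) by position or motif (x axis) among clustered (left, red) and isolated (right, blue) peaks. Each point is 1 replicate and black bars are the mean and SD of 3 replicates. In all 3 replicates the clustered share is lower for promoters (47.5 to 50.1%) and higher for introns (32.4 to 35.7%).

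The promoter share varied among the clustered peaks themselves. It was 74.2% (121 of 163) where the nearest summit was at most 390 bp away and 42.9% (243 of 566) where it was farther. In loci of 3 or more peaks it was 36.1% (66 of 183), with 40.4% in introns and 18.6% between genes, and in loci of 2 peaks 54.6% (298 of 546). The strongest peak of each locus was a promoter peak in 52.0% of cases and the other peaks in 48.3%. By signal, the share in clustered peaks lay between 46.9% and 52.5% in each of 4 signal classes of equal size over the retained list. Among isolated peaks it was 52.8%, 54.4%, 57.8% and 62.3% from the lowest to the highest class.

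Short sequences were counted in the 200 bp around each summit, on both strands. CACTG occurred at 383 of 729 clustered summits (52.5%), against 51.7% of isolated summits. In windows 500 bp to either side it occurred in 31.1% for clustered and 31.3% for isolated peaks, and in 37.3% of all protein-coding promoters, taken as 200 bp centred on the gene's 5′ end. Around clustered summits the word reached 20.3 per 100 peaks in a 50 bp bin near the summit and 9.74 per 100 peaks in the bin 950 bp before it on the plus strand. Its profile around isolated summits had the same form. It was on both summits in 79 of the 273 pairs, on 1 in 131 and on neither in 63. Of the 729 clustered summits, 346 held no CACTG, 263 held 1, 105 held 2 and 15 held 3 or more. Among the 2358 isolated summits these counts were 1139, 840, 307 and 72. Repeats of the word were thus in a minority of both. At 4 of the sequences printed above, those of NFAT, lncRNA:CR44619 and CG11050, CACTG occurs 2 times, and at CHES-1-like 4 times. The strongest clustered summit, in ush, and the printed summit at the CG1647 promoter have none.

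**Figure D4:**
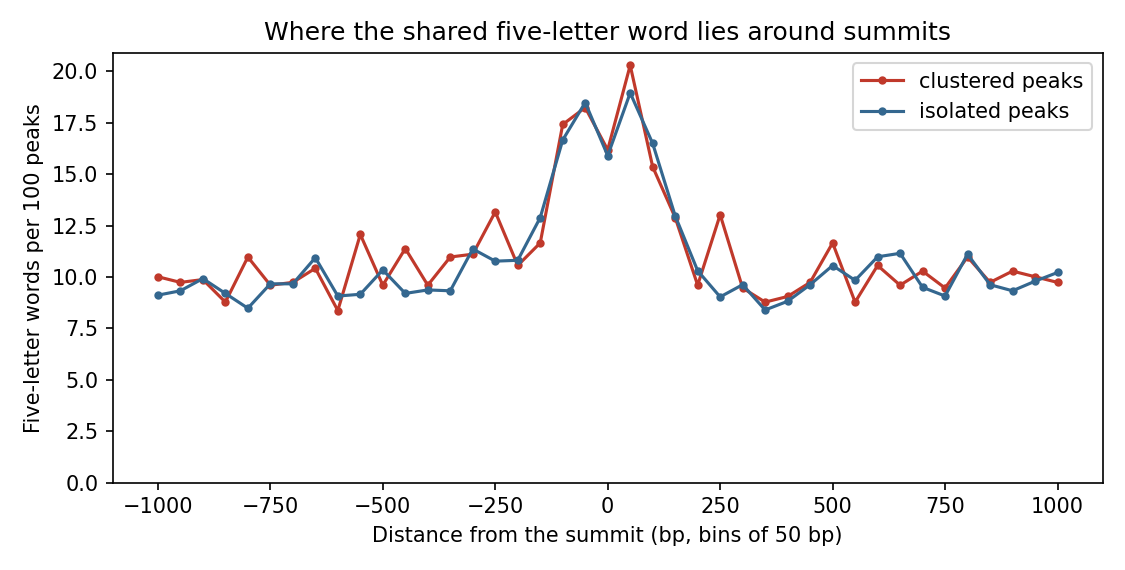
Number of CACTG words on either strand per 100 peaks (y axis) by distance from the summit in bp (x axis, bins of 50 bp), for clustered (red) and isolated (blue) peaks. Both curves are highest within 100 bp of the summit, at up to 20.3 for clustered and 19.0 for isolated peaks, with lower values on both sides.

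Longer forms of the word went apart. CACTGTG was at 81 clustered summits (11.1%) and at 7.12% of isolated ones. It was in 3.57% of windows beside clustered summits, 2.61% of those beside isolated summits and 2.45% of all promoters. A window beside a clustered summit can hold a neighbouring summit. In the replicates' own lists the shares with CACTGTG were 9.59%, 13.1% and 8.65% for clustered and 6.44%, 7.14% and 6.34% for isolated peaks. All 3 clustered values lay above all isolated ones, with a mean difference of 3.79 points ± 1.89 (SD, n = 3, exact permutation p = 0.25, adjusted over 3 words 0.38). The longer word CACTGAG also showed no overlap, as did most of the 15 features, so this is not particular to CACTGTG. By signal, CACTGTG was at 6.17%, 11.9%, 10.8% and 14.6% of clustered peaks from the lowest to the highest of the 4 classes of the retained list. Isolated peaks had 6.37%, 5.99%, 7.27% and 8.99%, so the lowest class showed no excess. CACTGAG was at 4.39% of clustered and 5.98% of isolated summits. Its replicate difference was -2.15 points ± 1.08, negative in 3 of 3 (exact permutation p = 0.25, adjusted 0.38). Among clustered peaks it was at 1.23% (2 of 163) where the nearest summit was at most 390 bp away. Where it was farther CACTGAG was at 5.30% (30 of 566). With overlapping peaks joined, the retained list had CACTGAG at 5.30% of clustered and 5.83% of isolated peaks, and the replicate difference was -1.75 points. For CACTGTG the joined values were 10.8%, 7.26% and 3.62 points. These words contain CACTG, and they were chosen after values of these data were seen. Outside promoters the differences had the same signs in each replicate, at means of 4.72 points for CACTGTG and -3.96 points for CACTGAG. In 100 bp windows they were 1.78 and -1.15 points, and CACTGTG was at 2.55 and CACTGAG at -1.04 among promoter peaks alone. A match is a description and not a proven site.

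Several motifs of other promoter and insulator proteins, though not all, were rarer in clustered windows. The DNA replication-related element (DRE), TATCGATA, was at 24 clustered summits (3.29%), against 5.34% of isolated summits and 7.84% of all promoters. Only 1 of these 24 lay in a locus of 3 or more peaks, and both summits of a pair held it in 1 locus. In the replicates the DRE was at 3.13% ± 0.12 of clustered and 5.26% ± 0.27 of isolated peaks, lower in 3 of 3 (exact permutation p = 0.25, adjusted 0.31). Within promoter peaks alone it was at 6.08% ± 0.23 of clustered and 8.92% ± 0.23 of isolated ones. The site of the insulator protein BEAF-32, CGATA, which the DRE contains, was at 29.1% ± 2.51 of clustered and 33.1% ± 1.53 of isolated peaks, a difference of -4.06 points that was -1.50 with 1 peak per locus. Among promoter peaks alone its difference was negative in 2 of 3 replicates and 0.197 in replicate 3 (exact permutation p = 0.5). The core of the CTCF motif, AGNNGGCGC, was at 2.21% ± 0.41 of clustered and 3.92% ± 0.55 of isolated peaks, and was lower in 3 of 3. In the retained list it was at 1.78% of clustered summits and 2.13% of the windows 500 bp beside them. For isolated peaks these values were 3.73% and 2.33%. In windows of 100 bp the differences were smaller, at -1.09 points for the DRE and -1.05 for the CTCF core, and the CTCF core was at -1.07 with 1 peak per locus.

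GAGAGAG, the sequence the GAGA factor binds, went the other way, at 5.50% ± 1.21 of clustered and 4.01% ± 0.77 of isolated peaks, higher within each of 3 replicates although the ranges overlap. Its difference of 1.49 points was 4.97 in 400 bp windows. In the windows 500 bp beside the summits of the retained list it was more frequent than at the summits, at 6.10% for clustered and 4.50% for isolated peaks. CAGGTAG, bound by Zelda, was at 1.43% ± 0.34 of clustered and 0.898% ± 0.12 of isolated peaks. The remaining fixed motifs were core promoter motifs 1, 6 and 7, the E-box of core promoters, CACGTG and TATAAA. Motifs 1, 6 and 7 were lower in clustered peaks in 3 of 3 replicates, at 1.05%, 0.378% and 6.24%, against 1.87%, 0.767% and 7.97% in isolated peaks. The E-box was at 1.89% of clustered and 1.68% of isolated peaks, CACGTG at 2.40% and 2.67%, and TATAAA at 30.2% and 29.7%, each with overlapping ranges. No feature passed the 0.05 threshold, which 3 replicates cannot reach.

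**Figure D5:**
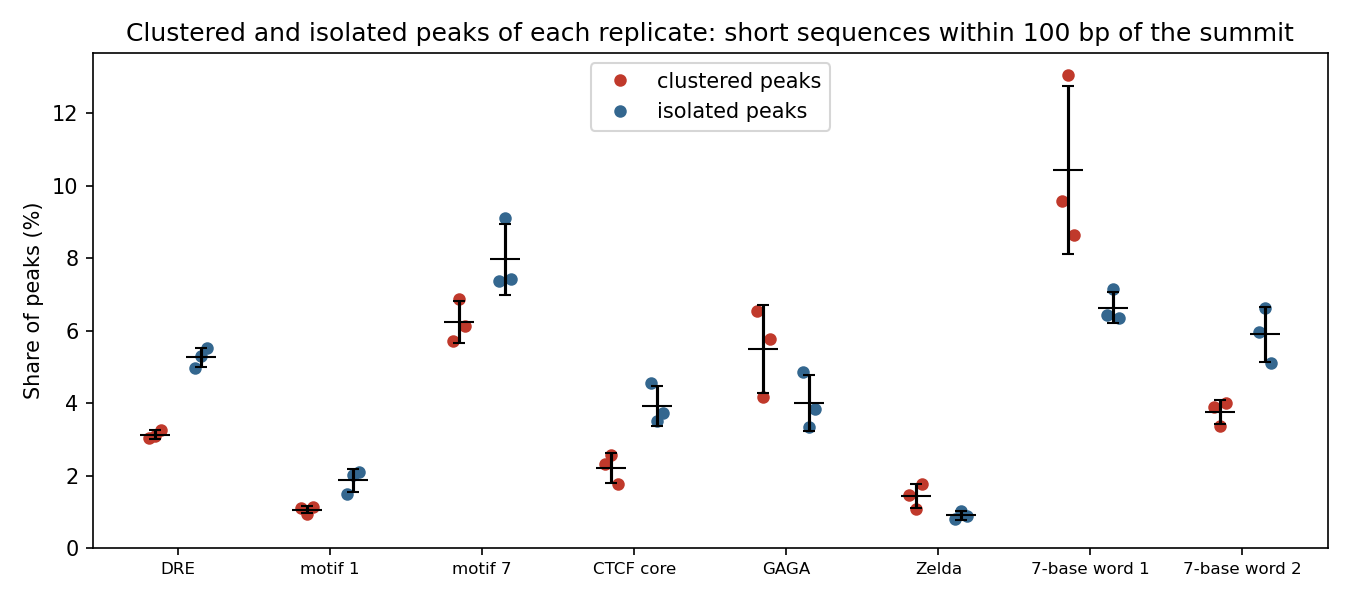
Share of peaks in percent (y axis) with a motif or word within 100 bp of the summit (x axis) among clustered (left, red) and isolated (right, blue) peaks. Each point is 1 replicate and black bars are the mean and SD of 3 replicates; 7-base word 1 is CACTGTG and 7-base word 2 is CACTGAG. The DRE is at 3.03 to 3.26% of clustered and 4.98 to 5.51% of isolated peaks.

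Clustered summits lay within 500 bp of a TSS of 363 of 13945 protein-coding genes (2.6%), or 16.0% of the 2266 genes with any retained summit there. Among 18 gene lists, cytoplasmic ribosomal proteins had 9 of 92 members at a clustered summit and 47 at isolated summits only. The clustered share of their bound genes was 16.1%. With the highest clustered signal at a TSS in parentheses, the leading members were RpL34b (558), RpL30 (334), RpS29 (328) and RpS25 (316). At RpL30 and RpS29 the summits lay 201 and 212 bp apart. Mitochondrial ribosomal proteins had 0 of 73 at clustered and 19 at isolated summits only.

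Chromatin regulators had small counts. Of the insulator and boundary list, which includes CG1647 itself, 4 of 21 were at a clustered summit: Cp190 (435), Trl (297), CG1647 (207) and BEAF-32 (167), with 5 at isolated summits only. Of the trithorax group 3 of 19 were, namely Trl, tara (169) and mor (156), a subunit gene of the Brahma complex, with 7 at isolated summits only. Of the Polycomb group 2 of 20 were, ph-p and ph-d (160), with 7 at isolated summits only. These are near-identical neighbouring copies, and how the authors placed reads that fit both is not known here. Trl carried clustered summits in separate loci, and so did Mef2.

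Signalling and developmental lists were counted in the same way. In the Notch pathway 3 of 16 genes were at clustered summits, namely the corepressor gene gro (564), the gamma-secretase subunit gene aph-1 (306) and the protease gene kuz (129), with 4 at isolated summits only. Of the signalling regulators 2 of 16 were, spi (530), which encodes an EGF receptor ligand, and aop (190), with 2 at isolated summits only. Single members were elav (563) of 15 nervous system markers, Mef2 (176) of 15 muscle markers, CycE (141) of 19 cell cycle genes and Hsp83 (473) of 16 heat shock genes. Their lists had 0, 2, 3 and 3 members at isolated summits only. None of 14 ecdysone response genes, 14 gap and maternal patterning genes, 19 pair-rule and segment polarity genes and 8 Hox genes was at a clustered summit, with 3, 2, 2 and 0 at isolated summits only. Of noncoding genes, snRNA:7SKa (205) was the 1 of 32 snRNA genes, tRNA:Tyr-GTA-1-8 (652) the 1 of 290 tRNA genes and snoRNA:Psi18S-1275 (328) the 1 of 269 snoRNA genes. The last lies at the same promoter as RpS29, and 7, 9 and 9 members of these lists were at isolated summits only.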

How the data were processed

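Positions and signal values came from the authors' deposited dm6 peak lists, 1 per replicate, 1 pooled and 1 retained after IDR; per the file headers and labels the candidate lists also hold background. Each row gives a signal value and the offset of the summit from the peak start, as deposited. Aligner, peak caller and IDR threshold: not given in the sources used here. Sequencing depth is unknown, and the control was not analysed here. Overlap meant at least 1 bp. Candidate lists held 30000, 17977 and 30000 peaks in replicates 1, 2 and 3 and 19204 pooled.

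Peaks were chained in Python 3.11.15 (numpy 2.4.6, pandas 2.3.3, scipy 1.17.1), tested on simulated data. Genes came from Ensembl release 115 on 6 arms. Shares have exact Clopper-Pearson 95% intervals, which cover counting error only. Replicate differences were tested by exact two-sided sign flips over 3 replicates, whose smallest p is 0.25, with Benjamini-Hochberg adjustment over 15 features. The replicates come from separate biosamples of 1 line.

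The members, gene lists, motifs and words were chosen with earlier results of these data known. Named were the 15 loci with the most peaks (ties by summed signal), the 10 pairs with the highest summed signal, up to 4 members of each of 18 gene lists by signal, CG1647 and the 3 strongest isolated peaks. The further loci of CHES-1-like, Mef2 and Trl were noted after their values were seen. Alternatives covered distances, windows, TSS definitions, list length, joined or single peaks, the dm3 lists and each replicate left out.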

Additional observations from a re-analysis of the deposited data

How the results depend on the processing

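The number of clustered peaks was 393 and that of loci 190 with the largest distance at 1000 bp, 1338 and 539 at 5000 bp, and 239 and 111 among the 1561 peaks with the highest signal. With each replicate left out, and only peaks found in both others kept, clustered peaks ranged from 442 to 456 and loci from 204 to 211. Joining overlaps left 585 and 268, and the dm3 list held 659 and 300. The promoter difference was -7.36 points, -9.36 to -6.04 with a replicate left out, and -13.7 to -2.83 under the other alternatives except the 1000 bp distance, where it was 0.199. Setting summits of the pooled candidate list as neighbours left 814 isolated peaks.

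The small differences that reversed were these. The intergenic difference was -0.772 with 1 peak per locus and -0.117 to 1.58 with a replicate left out (lowest without replicate 3), against 0.886. That of the E-box of core promoters was -0.334 in 400 bp windows, -0.201 with peaks joined and -0.103 (without replicate 1) to 0.409 with a replicate left out, against 0.215. That of CACGTG was 0.0388 in 100 bp and 0.102 in 400 bp windows, against -0.272. That of TATAAA was -1.10 with peaks joined and -0.298 (without replicate 2) to 1.42 with a replicate left out, against 0.543. That of CACTG was -0.0696 in 100 bp and -0.107 in 400 bp windows, against 1.03. Core promoter motif 7 was at 0.884 outside promoters, against -1.73, in an alternative chosen after seeing the data, as were all for the words. The cause was not tested. No other value reversed: 142 alternative values of share differences kept their direction. Of the counts, 10 stayed within 1.5 times and 13 moved beyond it. Each difference was taken within a replicate, so the sign-flip test is paired by replicate, and no block could be left out or added with 1 group.

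Sequencing depth is unknown, so sites below the retained threshold cannot be called absent: 1544 of the 2358 isolated peaks (65.5%) had a candidate summit over 200 and up to 2000 bp away.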
